A study of Homo sapiens with 8 samples.

Results

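The integrin and laminin genes were examined in SK-UT-1 cells, a human uterine leiomyosarcoma cell line, by RNA-seq of 4 libraries from cells given the vehicle DMSO and 4 libraries from cells given TP-472, an inhibitor of the bromodomain proteins BRD9 and BRD7, at 5 µM for 48 h. All 8 libraries came from the same cell line, which limits the data to that line. The members were chosen by family name, and they were 35 of 60282 genes in the deposited table, with 25 integrins (17 alpha and 8 beta chains) and 10 laminin chains. Of these, 20 members (12 integrins and 8 laminins) had a CPM (read counts scaled to library size) above 1 in at least 4 libraries and were tested, while 15 members (13 integrins and 2 laminins) lay under that limit and are described by their counts.

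Integrins are cell surface receptors, each a pair of an alpha and a beta chain, that hold a cell to its matrix and pass signals from the matrix through adaptor proteins to the actin cytoskeleton. Laminins are the network-forming proteins of basement membranes, each a trimer of an alpha, a beta and a gamma chain, and they are ligands of several integrins. In the uterus, every smooth muscle cell is wrapped in a basement membrane, and these contacts carry the force of contraction.

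The total estimated count per library ranged from 32574672 in vehicle replicate 3 to 38545464 in TP-472 replicate 1. Vehicle replicate 3 stood apart from the rest of its group. Its median Spearman correlation with the other vehicle libraries was 0.914, whereas the remaining vehicle libraries had medians between 0.988 and 0.989. Across genes, the deviation of this library from the mean of its group had a Spearman correlation of 0.765 with the GC content of the transcript, against -0.624 to -0.578 in the other vehicle libraries, which share that mean. Mitochondrial genes held 0.424% of the counts in vehicle replicate 3 and 0.286% to 0.405% in the other vehicle libraries. Among the 20 tested members, vehicle replicate 3 was the highest vehicle library for 11 and the lowest for 8, and over these 20 genes, which share the same library, the Spearman correlation between GC content and its departure from the other vehicle libraries was 0.905. Fold changes of the tested members and counts of calls are therefore given with and without this library.

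**Figure D1:**
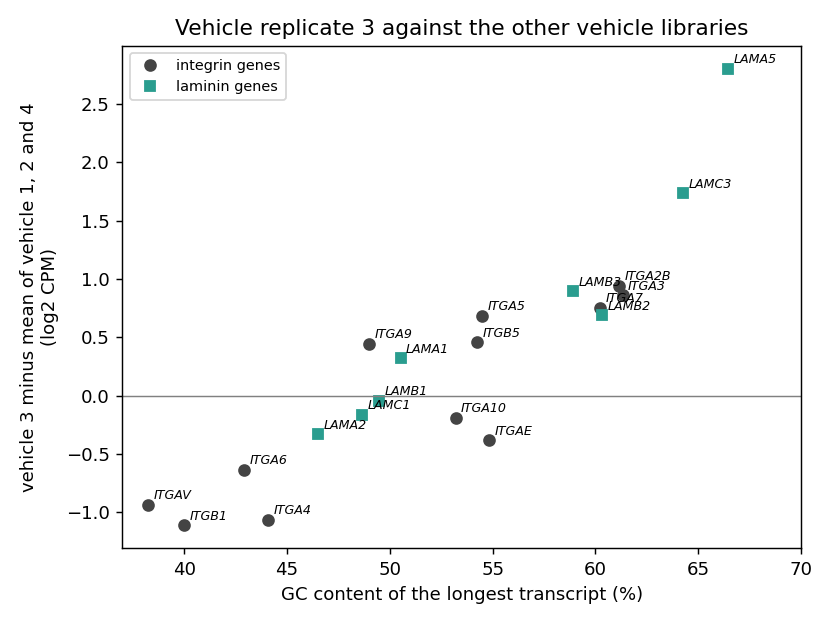
The x axis gives the GC content (%) of the longest transcript of each of the 20 tested members, and the y axis gives the log2 CPM of vehicle replicate 3 minus the mean of the other vehicle libraries. GC-rich members such as LAMA5 and LAMC3 lie above 0, and GC-poor members such as ITGB1 and ITGAV lie below it (Spearman correlation 0.905, a description over 20 genes of the same library).

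The labelled cell type was checked against marker genes. Of 9 smooth muscle markers, 6 exceeded 1 CPM in every vehicle library. The most abundant was CALD1, an actin-binding protein, at a mean of 199.6 CPM in vehicle and 191.6 CPM in TP-472-treated cells, while the defining markers MYH11 and MYOCD were close to 0 in vehicle (means of 0.00703 and 0.0418 CPM). The summed smooth muscle markers came to 439, 479, 524 and 481 CPM in vehicle replicates 1 to 4 and to 380, 378, 373 and 371 CPM in TP-472 replicates 1 to 4. The 6 leukocyte markers, led by the lysosomal protein gene CD68, summed to 7.15 to 8.51 CPM in vehicle and 9.75 to 13.0 CPM with TP-472, with CD3E at 0 in every library and PTPRC at 0 in every vehicle library. The 5 endothelial markers, led by VWF, summed to at most 0.144 CPM in vehicle and 0.687 CPM with TP-472, with CDH5 and KDR at 0 in vehicle. The 6 epithelial markers, led by the keratin KRT18, summed to 17.7 to 23.1 CPM in vehicle and 20.5 to 27.0 CPM with TP-472, and the 3 mesenchymal markers were led by VIM, whose mean was 2538 CPM in vehicle and 1908 CPM with TP-472. The part that these marker shifts have in the values below was not tested.

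The first question was how the chains of laminin, as ligands, differed between vehicle and TP-472-treated cells. LAMA1 was higher with TP-472, and LAMB2, LAMA5 and LAMC3 were lower. A gene was called at an edgeR quasi-likelihood adjusted p under 0.05 and a fold change over 1.5, limits that 26.9% of the 14073 genes tested passed, 12.0% as higher and 14.9% as lower with TP-472. Of the 8 laminin chains tested, 1 was called higher, 3 lower and 4 in neither direction, with a median log2 fold change of -0.20 against -0.03 over all genes tested. Without vehicle replicate 3, where 12.0% of genes were called higher and 13.4% lower, the laminin counts were again 1 higher and 3 lower, with a median of -0.26. With a filter at 5 CPM, which LAMA1 did not meet, 0 laminins were called higher and 3 lower. Over all genes, that filter gave 1154 called higher and 1518 lower. With any TP-472 library left out, 1 laminin was called lower, and the number of all genes called lower was 1387 to 1618 of 14073 in place of 2096. As the RNA was taken from whole cultures, less RNA per cell and fewer cells with the transcript cannot be told apart.

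LAMB2 encodes the beta chain that is typical of muscle and synaptic basement membranes, and it lies at chr3:49121114-49133118 on the minus strand (GRCh38). In vehicle replicates 1 to 4 it stood at 228, 218, 362 and 228 CPM, and in TP-472 replicates 1 to 4 at 102, 98.6, 95.1 and 89.8 CPM. Every TP-472 library lay below every vehicle library, a separation without overlap that 45.4% of all tested genes showed in 1 direction or the other. The mean was 259 ± 69.1 CPM in vehicle and 96.3 ± 5.08 CPM with TP-472 (SD, n = 4), with a log2 fold change of -1.43 (SE 0.17, edgeR adjusted p = 6.01e-04). The log2 fold change was -1.22 without vehicle replicate 3, and LAMB2 was called lower in all 17 alternative fits.

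LAMA5 encodes an alpha chain found in many adult basement membranes, and it lies at chr20:62307955-62367312 on the minus strand. It stood at 25.9, 10.2, 99.3 and 10.8 CPM in the vehicle libraries and at 6.70, 5.78, 5.52 and 8.48 CPM in the TP-472 libraries. The groups did not overlap, but vehicle replicate 3 was far above the other vehicle libraries, and vehicle replicate 1 was also above replicates 2 and 4. The mean was 36.6 ± 42.5 CPM in vehicle and 6.62 ± 1.34 CPM with TP-472, and the log2 fold change was -2.46 (SE 0.71, edgeR adjusted p = 0.0253). It was -1.24 without vehicle replicate 3 and -1.62 with an offset for GC content. LAMA5 was called lower in 12 of 17 alternative fits, with adjusted p from 7.51e-04 to 0.0780, and the call was lost whenever a TP-472 library was left out, with log2 fold changes of -2.61 to -2.39 in those fits. On the opposite strand, 244 exonic bases of LAMA5 overlap ADRM1.

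The sequences upstream of these genes are shown because LAMB2 and LAMA5 were the laminin chains with the largest decreases, and each is printed 5′ to 3′ on the gene's strand from RefSeq (GRCh38.p14). LAMB2 is taken from chr3:49133119-49133300 and LAMA5 from chr20:62367313-62367562, both minus strand, and capitals mark the letters GGGCGG, the core of the SP1 motif, or its reverse complement.
LAMB2: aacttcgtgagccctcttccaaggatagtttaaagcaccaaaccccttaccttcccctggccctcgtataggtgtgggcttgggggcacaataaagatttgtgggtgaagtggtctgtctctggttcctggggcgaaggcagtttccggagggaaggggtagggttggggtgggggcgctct
LAMA5: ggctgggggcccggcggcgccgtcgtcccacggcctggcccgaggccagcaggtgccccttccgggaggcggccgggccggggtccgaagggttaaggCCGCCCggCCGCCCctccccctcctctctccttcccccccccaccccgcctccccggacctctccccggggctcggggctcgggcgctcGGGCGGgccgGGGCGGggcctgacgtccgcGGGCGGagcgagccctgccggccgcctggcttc

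The LAMA5 stretch was 82.8% GC and held the SP1 letters 5 times, and the LAMB2 stretch shown held them 0 times, while the rest of its 250-base window, which is not printed, held them 1 time. The windows searched were the 250 bases before the RefSeq start of each gene, which lay inside the GENCODE gene for many members, including LAMB2, and far inside it for LAMA3 and ITGB1. In these windows the SP1 letters were found on either strand in 13 of 25 members with a RefSeq entry (52.0%) and in 42.3% of 27305 promoters. The letters TGANTCA of AP-1 were present in 1 of 25 members, LAMA3, where the window (chr18:23872770-23873019) lies before an internal start, and in 6.60% of all promoters. The letters GGAATG of TEAD factors were present in ITGA5, ITGA10, ITGB1 and LAMA2, which are 4 of 25 members (16.0%), and in 11.9% of all promoters. These matches are a description of the letters in the window and do not show binding.

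LAMC3 encodes a gamma chain (chr9:131009082-131094473). Its values were 19.9, 16.4, 57.8 and 16.1 CPM in vehicle and 11.8, 9.81, 10.6 and 10.6 CPM with TP-472. The groups did not overlap, TP-472 being the lower, and vehicle replicate 3 was again the highest. The log2 fold change was -1.37 (SE 0.41, edgeR adjusted p = 0.0291) with all libraries and -0.71 without vehicle replicate 3, and the call was lost whenever a TP-472 library was left out, at log2 fold changes of -1.42 to -1.33. LAMC1, which encodes the gamma chain of most laminin trimers, had 192, 190, 170 and 188 CPM in vehicle and 153, 150, 149 and 157 CPM with TP-472. Its groups did not overlap, and its log2 fold change of -0.28 (SE 0.09, edgeR adjusted p = 0.0373), -0.32 without vehicle replicate 3, lay under the fold limit.

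LAMA1 encodes the alpha chain of embryonic basement membranes (chr18:6941744-7117814) and was the laminin called higher. It had 0.720, 1.24, 1.27 and 1.15 CPM in vehicle and 3.70, 2.82, 2.75 and 3.99 CPM with TP-472. Each TP-472 library lay above all vehicle libraries, although both levels were low. With 3 vehicle libraries over 1 CPM, LAMA1 met the expression filter of 4 libraries only with its TP-472 libraries. A difference was thus in part built into its being tested. The mean rose from 1.10 ± 0.255 to 3.31 ± 0.625 CPM (SD, n = 4), with a log2 fold change of 1.60 (SE 0.23, edgeR adjusted p = 0.00138) that was 1.68 without vehicle replicate 3. An annotated antisense gene overlaps 1641 exonic bases of LAMA1. The paper describes the libraries as strand-specific, but whether reads were counted by strand is not settled. Reads of the antisense gene therefore cannot be told apart from its own.

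The 4 remaining tested laminins did not pass both limits. LAMB1, the beta chain of many embryonic and adult laminins, had 20.1 to 21.0 CPM in vehicle and 25.6 to 27.5 CPM with TP-472. The separation was complete, but its log2 fold change of 0.36 (SE 0.09, edgeR adjusted p = 0.0166), 0.35 without vehicle replicate 3, was under the fold limit. LAMA2, the alpha chain of skeletal and smooth muscle basement membranes, had means of 33.7 ± 3.87 and 31.0 ± 1.24 CPM and a log2 fold change of -0.12 (SE 0.11, edgeR adjusted p = 0.415). The LAMA2 groups did not overlap without vehicle replicate 3, and the log2 fold change was -0.20 (edgeR adjusted p = 0.0233), under the fold limit. For LAMB3, the beta chain of the epithelial laminin that anchors skin, the log2 fold change was -0.07 (SE 0.25, edgeR adjusted p = 0.837) and 0.21 without vehicle replicate 3, so its sign turned without that library.

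Since levels of different genes can be compared only per length, chain composition was calculated from CPM per kb of exonic sequence. Within the beta chains, LAMB2 made up 91.8% ± 1.21 of the summed CPM per kb in vehicle and 77.9% ± 1.05 with TP-472 (SD, n = 4). The share of LAMB1 was 4.38% to 7.31% in vehicle and 16.9% to 19.5% with TP-472, with no overlap between the groups. Within the alpha chains, LAMA2 held 62.3% ± 24.3 in vehicle and 79.1% ± 3.70 with TP-472. The lowest vehicle share was in replicate 3, where LAMA2 held 27.6% and LAMA5 70.3%. Without that library the vehicle mean of LAMA2 was 73.9%. LAMA5 was also higher in vehicle replicate 1 (25.9 CPM) than in replicates 2 and 4 (10.2 and 10.8 CPM). The highest vehicle share of LAMA2 was 79.8%, within the TP-472 range of 74.0% to 81.8%. LAMC1 was the main gamma chain in all libraries, with a mean of 86.2% in vehicle (90.8% without replicate 3) and 92.8% with TP-472. These shares describe transcripts and not assembled trimers.

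**Figure D2:**
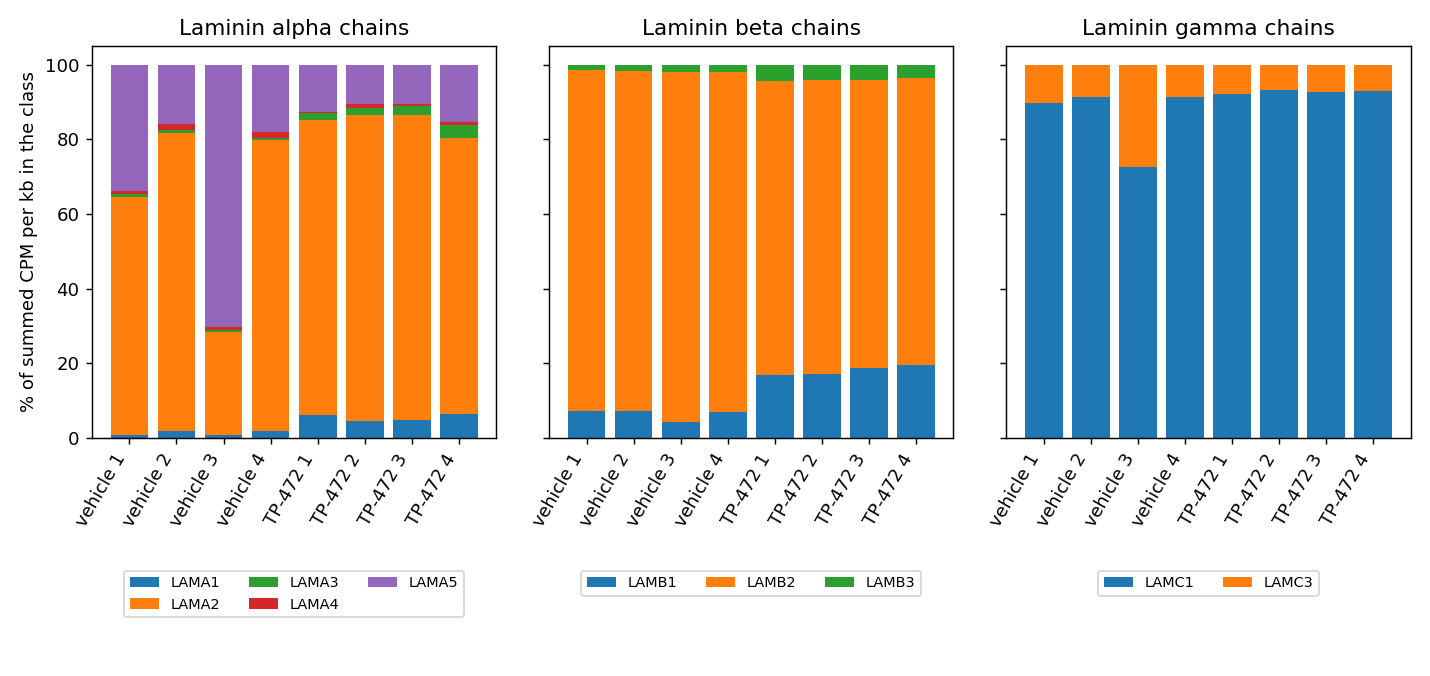
Each bar is a library, and the segments give each chain's percentage of the summed CPM per kb within the laminin alpha, beta and gamma chains. The LAMB1 segment is larger in all 4 TP-472 libraries (16.9% to 19.5%) than in all 4 vehicle libraries (4.38% to 7.31%), and vehicle replicate 3 stands apart among the alpha and gamma chains.

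The second question was how the integrin receptors differed. ITGA10 and ITGAE were higher with TP-472, and ITGA2B was lower. Of the 12 integrins tested, 2 were called higher, 1 lower and 9 in neither direction, with a median log2 fold change of -0.13, and both beta chains tested were among the 9. Over all genes, 12.0% were called higher and 14.9% lower. Without vehicle replicate 3 the counts were 1 higher and 1 lower with a median of -0.08, because ITGAE then lay just under the fold limit, against 12.0% and 13.4% of all genes. ITGA10 and ITGA2B were tested through the group in which they were high, so their differences were built into the filter. With a filter at 5 CPM, 1 integrin was called higher and 0 lower, beside 1154 genes called higher and 1518 lower. The groups did not overlap for 5 of the 12 integrins and 6 of the 8 laminins, against 45.4% of all tested genes.

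**Figure D3:**
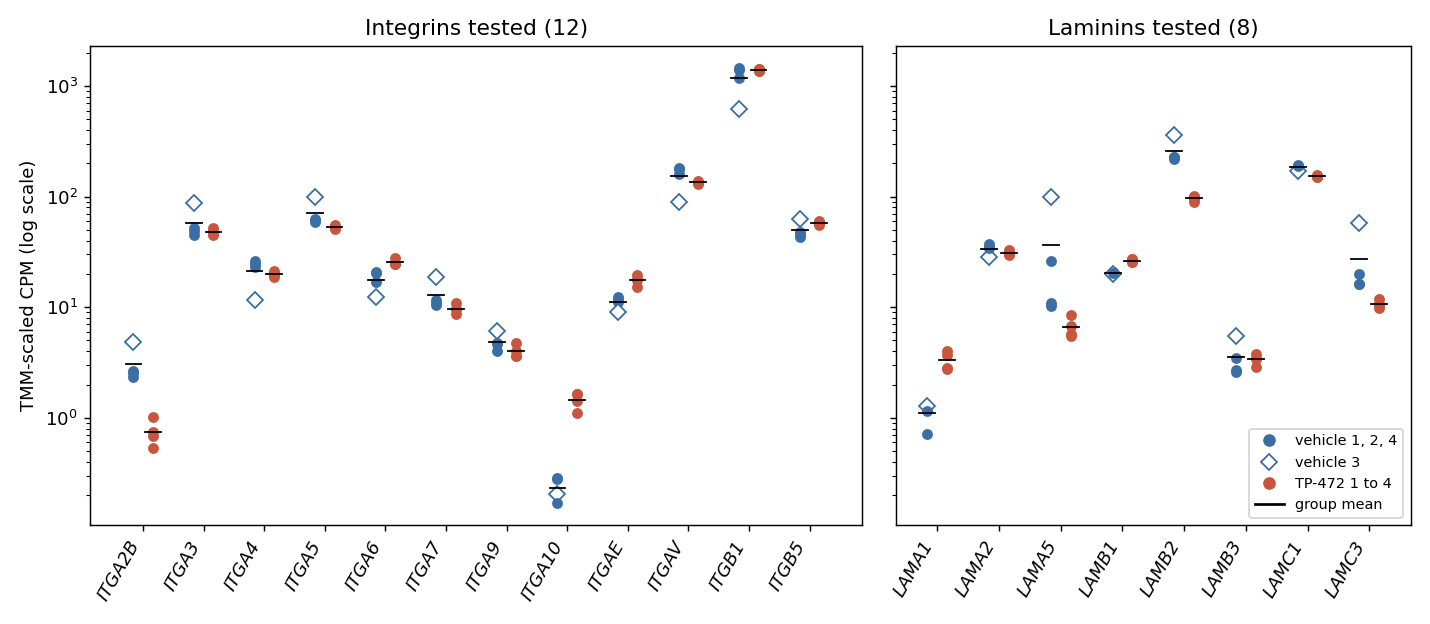
Scaled CPM (log axis) of the 12 tested integrins and 8 tested laminins is shown for each library, with vehicle replicate 3 as an open diamond and a line at each group mean. LAMB2 and ITGA2B lie lower and ITGA10 and LAMA1 higher in all TP-472 libraries, and ITGB1 is at 1192 CPM or above in all libraries but vehicle replicate 3.

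ITGB1 encodes the beta chain that pairs with most of the matrix-binding alpha chains, and it dominated the family. It had 1192, 1465, 624 and 1410 CPM in vehicle and 1375, 1375, 1428 and 1436 CPM with TP-472. The groups overlapped, and vehicle replicate 3 was the low value. The log2 fold change was 0.26 (SE 0.24, edgeR adjusted p = 0.410) and 0.05 without that library. Per kb of exon, ITGB1 held 95.3% ± 2.97 of the summed beta chain level in vehicle and 96.1% ± 0.157 with TP-472. ITGB5, a partner of ITGAV, was second at 4.42% and 3.71%. Without vehicle replicate 3 the vehicle means were 96.8% for ITGB1 and 3.07% for ITGB5, so both differences in share turned. ITGB5 had 43.4 to 62.5 CPM in vehicle and 55.9 to 59.9 CPM with TP-472, and its log2 fold change of 0.22 (SE 0.13, edgeR adjusted p = 0.199) did not pass. All TP-472 values of ITGB5 lay above the vehicle values once vehicle replicate 3 was left out, and the log2 fold change was 0.35 (edgeR adjusted p = 8.20e-04), under the fold limit.

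Among the alpha chains, ITGAV, which binds the RGD motif of fibronectin and vitronectin, had the highest mean level per kb, with 41.5% ± 10.7 of the summed alpha chain level in vehicle and 40.7% ± 0.921 with TP-472. In vehicle replicate 3 it held 25.7% and ITGA5 30.2%, and the vehicle mean of ITGAV without that library was 46.8%. It had 159, 179, 90.3 and 181 CPM in vehicle and 131, 134, 137 and 138 CPM with TP-472. The TP-472 libraries lay below vehicle replicates 1, 2 and 4 and above replicate 3, and the log2 fold change was -0.18 (SE 0.20, edgeR adjusted p = 0.505). It was -0.36 without vehicle replicate 3 (edgeR adjusted p = 9.86e-04), which passed the limit on p and not that on the fold. ITGA5, the fibronectin receptor chain, followed at 21.0% (17.9% without vehicle replicate 3) and 17.3% of the alpha chain level. ITGA5 had 58.6 to 98.2 CPM in vehicle and 51.3 to 54.9 CPM with TP-472, without overlap, but its log2 fold change of -0.41 (SE 0.17, edgeR adjusted p = 0.0818) did not pass. It was -0.21 without vehicle replicate 3 (edgeR adjusted p = 0.0111), under the fold limit.

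The laminin-binding chains are ITGA3, ITGA6 and ITGA7. ITGA6, which with ITGB1 or ITGB4 binds a broad range of laminins, had 17.0, 20.4, 12.4 and 20.8 CPM in vehicle and 25.3, 24.7, 24.6 and 28.0 CPM with TP-472. All TP-472 libraries were above all vehicle libraries, and the log2 fold change was 0.54 (SE 0.17, edgeR adjusted p = 0.0346), which is under the fold limit. It passed the limit with vehicle replicate 2 or vehicle replicate 4 left out (0.61 and 0.63) and was at 0.40 without vehicle replicate 3. Its share of the alpha chain level was 6.05% ± 1.16 in vehicle and 9.71% ± 0.484 with TP-472. ITGA3 had means of 58.3 ± 19.9 and 48.1 ± 3.27 CPM, and its log2 fold change of -0.28 (SE 0.21, edgeR adjusted p = 0.310) was -0.01 without vehicle replicate 3 and 0.10 with the GC offset. ITGA7, the main laminin-binding chain of muscle, had means of 13.0 ± 3.83 and 9.70 ± 0.932 CPM with a log2 fold change of -0.42 (SE 0.20, edgeR adjusted p = 0.123) that was -0.19 without vehicle replicate 3.

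The collagen-binding chains are ITGA1, ITGA2, ITGA10 and ITGA11, all partners of ITGB1, and their levels were low. ITGA10 (chr1:145891208-145910189) had 10, 10, 7 and 6 counts in vehicle and 63, 58, 51 and 42 counts with TP-472. It passed the expression filter through the TP-472 libraries alone, so a difference was built into its being tested. The means were 0.234 ± 0.0576 and 1.45 ± 0.248 CPM, with a log2 fold change of 2.61 (SE 0.25, edgeR adjusted p = 2.13e-04) that was 2.55 without vehicle replicate 3.

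ITGA2, a receptor for collagen and laminin, was under the filter with 5, 6, 1 and 1 counts in vehicle and 65, 45, 37 and 47 counts with TP-472. The groups did not overlap, and the exact two-sided permutation test gave p = 0.0286, the smallest that 70 assignments of the libraries allow. With no filter, the edgeR log2 fold change was 3.76 (SE 0.49, adjusted p = 1.29e-04). ITGA1, which binds collagen and is found on smooth muscle, had 17, 8, 6 and 9 counts in vehicle and 41, 55, 35 and 49 counts with TP-472, also without overlap (exact permutation p = 0.0286). Its log2 fold change with no filter was 2.08 (SE 0.38, edgeR adjusted p = 0.00153). On the same strand, ITGA1 shares 475 exonic bases with PELO and 571 with the pseudogene AC022133.1, so its counts are uncertain. ITGA11, a receptor of fibrillar collagens, had 10 to 21 counts in vehicle and 4 to 16 counts with TP-472 (exact permutation p = 0.143), and its groups overlapped.

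ITGA2B encodes the platelet fibrinogen receptor chain (chr17:44372180-44389505). It had 2.52, 2.33, 4.86 and 2.67 CPM in vehicle and 1.01, 0.536, 0.749 and 0.687 CPM with TP-472. The groups did not overlap, and the gene passed the filter through its vehicle libraries, with 1 TP-472 library over 1 CPM, so a difference was built into its being tested as well. The log2 fold change was -2.05 (SE 0.31, edgeR adjusted p = 0.00151) and -1.74 without vehicle replicate 3. ITGAE, which pairs with ITGB7 in lymphocytes to bind E-cadherin, had 11.2, 12.5, 9.09 and 12.0 CPM in vehicle and 18.1, 17.8, 19.6 and 15.4 CPM with TP-472. Each TP-472 library exceeded each vehicle library. The log2 fold change was 0.66 (SE 0.14, edgeR adjusted p = 0.00717) and 0.58 without vehicle replicate 3, under the limit, and 427 exonic bases of ITGAE overlap HASPIN on the opposite strand.

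ITGA4, whose ligands include fibronectin and VCAM1, and ITGA9, whose ligands include tenascin, completed the tested integrins. ITGA4 had means of 21.4 ± 6.56 and 20.1 ± 1.13 CPM with a log2 fold change of -0.09 (SE 0.23, edgeR adjusted p = 0.774), and without vehicle replicate 3 its groups did not overlap and the log2 fold change was -0.29 (edgeR adjusted p = 0.00864), under the fold limit. For ITGA9 the log2 fold change was -0.28 (SE 0.18, edgeR adjusted p = 0.229) and -0.16 without that library.

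**Figure D4:**
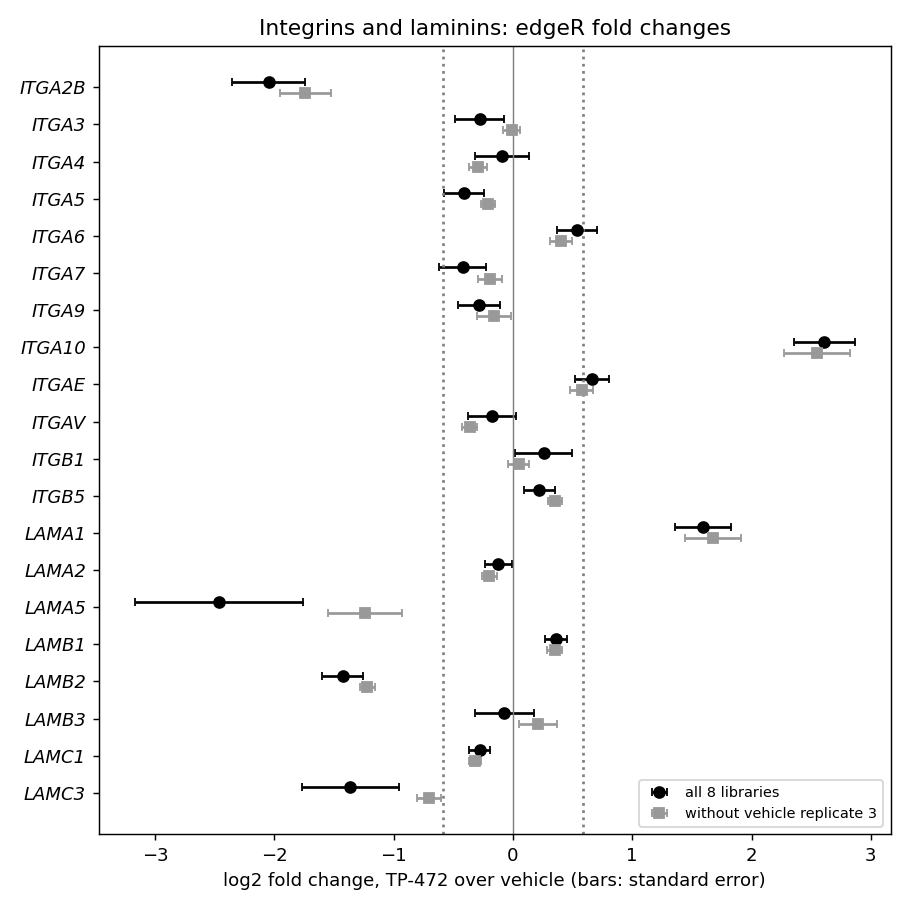
Log2 fold changes (TP-472 over vehicle) of the 20 tested members are shown with bars of 1 standard error, in black for all 8 libraries and in grey without vehicle replicate 3, and dotted lines mark a 1.5-fold change. The grey squares of LAMA5 and LAMC3 lie much closer to 0 than the black circles, whereas those of ITGA10, LAMA1 and LAMB2 lie near them.

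The other members under the filter were mostly chains of leukocyte or epithelial integrins. ITGAM, of the complement receptor on myeloid cells, had 23, 18, 29 and 27 counts in vehicle and 64, 30, 33 and 59 counts with TP-472 (exact permutation p = 0.0286), and it was not called with no filter (edgeR adjusted p = 0.0860). ITGAX, its relative on dendritic cells, had 56, 20, 94 and 33 counts in vehicle and 32, 23, 12 and 18 counts with TP-472 (exact permutation p = 0.114), with a log2 fold change of -1.32 and an edgeR adjusted p of 0.0478 with no filter. ITGB2, the shared beta chain of leukocyte integrins, had 0, 1, 8 and 0 counts in vehicle and 4 to 7 counts with TP-472, and ITGAL had at most 4 counts in any library. ITGB7, the beta chain of lymphocyte homing receptors, had 5 to 12 and 5 to 16 counts, and 1886 of its exonic bases overlap ZNF740 on the opposite strand. The beta chains that can pair with ITGAV other than ITGB1 and ITGB5 were also scarce, with ITGB3 at 25 to 34 and 23 to 45 counts, ITGB8 at 17 to 31 and 28 to 60 counts, and ITGB6 at 0 in every vehicle library and at most 2 counts with TP-472. ITGB3 shares 2266 exonic bases with AC068234.1 on the same strand, so its counts are uncertain. ITGB4, the hemidesmosome chain that binds laminin with ITGA6, had 35, 26, 85 and 27 counts in vehicle and 17, 23, 6 and 31 counts with TP-472 (exact permutation p = 0.0857). ITGA8, the nephronectin receptor chain of smooth muscle, had 1, 0, 0 and 0 counts in vehicle and 4, 3, 2 and 3 counts with TP-472, too few for a fold change.

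The laminins under the filter were LAMA3 and LAMA4. LAMA3, the alpha chain of epithelial laminin, had 18, 21, 23 and 12 counts in vehicle and 39, 37, 48 and 70 counts with TP-472 (exact permutation p = 0.0286), with no overlap and a log2 fold change of 1.31 (SE 0.33, edgeR adjusted p = 0.0130) with no filter. LAMA4, the alpha chain of vessel and smooth muscle basement membranes, had 19, 30, 33 and 27 counts in vehicle and 7, 19, 8 and 17 counts with TP-472 (exact permutation p = 0.0571). With scaling by total count, ITGAM no longer passed 0.05 in the permutation test and LAMA4 did.

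**Figure D5:**
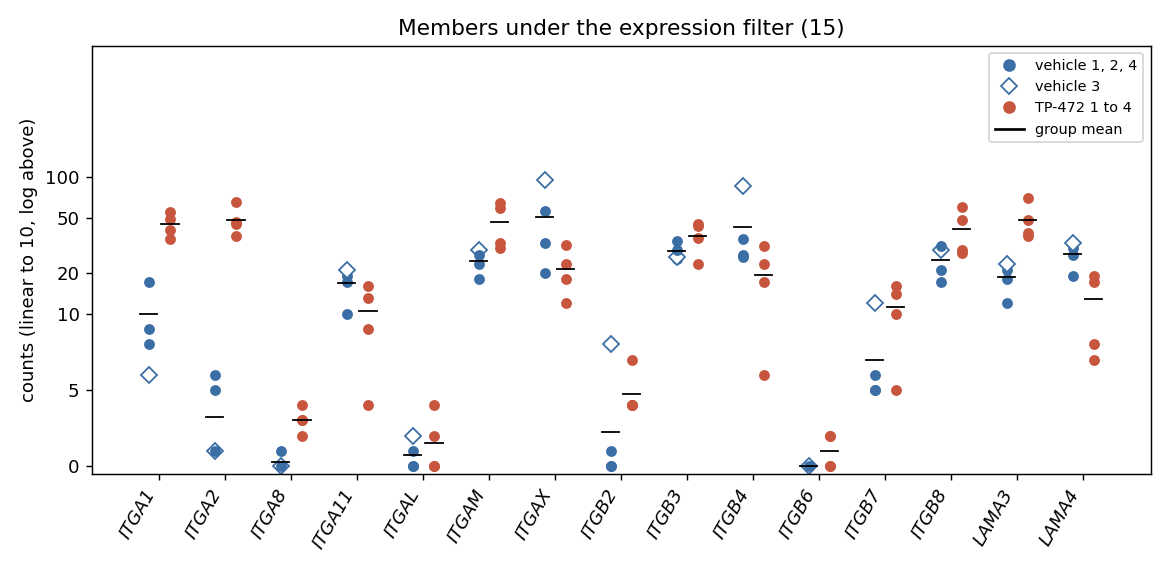
Counts per library are shown for the 15 members under the expression filter, on an axis that is linear to 10 and logarithmic above, with a line at each group mean. All TP-472 counts of ITGA1, ITGA2, ITGA8, ITGAM and LAMA3 lie above all vehicle counts.

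The third question was how the genes that work with laminins and integrins differed. The basement membrane partners of laminins were lower as a list, with 12 of 13 tested genes called lower, 0 higher and a median log2 fold change of -1.23 against the 14.9% of all genes called lower, and all 12 were also called lower without vehicle replicate 3, where the median was -0.80. With any TP-472 library left out, 10 were called lower, beside 1387 to 1618 of all 14073 tested genes. HSPG2, the heparan sulfate proteoglycan perlecan, had means of 96.8 ± 105.8 and 12.1 ± 1.94 CPM and a log2 fold change of -3.00 (SE 0.67, edgeR adjusted p = 0.00921), which was -1.89 without vehicle replicate 3. The basement membrane linkers FBLN1 and FBLN2 had log2 fold changes of -1.77 (edgeR adjusted p = 0.00234) and -1.49 (edgeR adjusted p = 0.00148), which were -1.40 and -1.22 without that library. AGRN, the proteoglycan agrin, had a log2 fold change of -1.49 (edgeR adjusted p = 0.0322) and of -0.73 without vehicle replicate 3. COL7A1, the anchoring fibril collagen and the gene not called lower, had a log2 fold change of 0.59 (edgeR adjusted p = 0.177) and was called higher without vehicle replicate 3, at 1.08 (edgeR adjusted p = 5.69e-05).

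Of the 37 tested adaptors that activate integrins or tie them to actin, 2 were called higher and 13 lower, with a median log2 fold change of -0.33, against 12.0% and 14.9% of all genes. Without vehicle replicate 3, 3 were called higher and 8 lower, with a median of -0.09, against 12.0% and 13.4%. With 1 TP-472 library left out, 4 to 7 adaptors were called lower, beside 1387 to 1618 of all 14073 tested genes. NEDD9, called higher with and without vehicle replicate 3, had a vehicle minimum of 0.747 CPM. It met the expression filter only with its TP-472 libraries, so its difference was in part built into its being tested. FERMT1, a kindlin that activates integrin beta chains, rose from 10.7 ± 0.895 to 21.8 ± 1.30 CPM (log2 fold change 1.03, edgeR adjusted p = 3.79e-04). The tensins TNS1 and TNS3, which tie beta chain tails to actin, fell by 2.08 (edgeR adjusted p = 0.00387) and 1.82 (edgeR adjusted p = 0.00114) on the log2 scale. TGFB1I1, the paxillin relative of smooth muscle focal adhesions, fell by 1.73 (edgeR adjusted p = 0.0159), and the kinase SRC fell by 1.30 (edgeR adjusted p = 0.0277). Without vehicle replicate 3 the log2 fold changes of TNS1, TNS3, TGFB1I1 and SRC were -1.60, -1.49, -1.06 and -0.75.

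Of the 18 other integrin ligands tested, 4 were called higher and 5 lower, with a median of 0.18, beside 12.0% and 14.9% of all genes. Without vehicle replicate 3, where those shares were 12.0% and 13.4%, 5 were called higher and 4 lower. With 1 library left out at a time, 2 to 4 were called lower, beside 1387 to 2399 of all 14073 tested genes. TNC, called higher with and without vehicle replicate 3, had a vehicle minimum of 0.720 CPM. It met the expression filter only with its TP-472 libraries, so its difference was in part built into its being tested. CCN2, a matricellular ligand also known as connective tissue growth factor, rose from 8.91 ± 1.47 to 42.5 ± 4.81 CPM (SD, n = 4), with a log2 fold change of 2.26 (SE 0.16, edgeR adjusted p = 4.49e-05). ICAM1, a ligand of leukocyte integrins, had a log2 fold change of 0.73 (edgeR adjusted p = 0.0215). The thrombospondin THBS3 fell by 2.16 (edgeR adjusted p = 8.95e-05), and NPNT, the nephronectin ligand of ITGA8, fell by 1.16 (edgeR adjusted p = 0.00267). MFGE8, an RGD ligand of ITGAV, had a log2 fold change of -0.82 (edgeR adjusted p = 0.0296) that was -0.50 and not called without vehicle replicate 3, and the microfibril protein FBN1 had -0.59 (edgeR adjusted p = 0.00412).

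Of 26 tested laminin receptors other than integrins and integrin-associated tetraspanins, 2 were called higher and 6 lower, with a median of -0.24, where all genes gave 12.0% and 14.9%. Leaving out vehicle replicate 3 gave 1 higher and 5 lower, and all genes then gave 12.0% and 13.4%. SDC2, called higher in both fits, had a vehicle minimum of 0.608 CPM and met the expression filter only with its TP-472 libraries. Its difference was thus in part built into its being tested. BCAM, a receptor of the LAMA5 chain, had a log2 fold change of -2.01 (edgeR adjusted p = 0.0201), which was -1.08 without vehicle replicate 3. UTRN, the utrophin that links dystroglycan to actin, fell by 1.03 (edgeR adjusted p = 2.24e-04), with means of 176 ± 11.2 and 86.2 ± 6.77 CPM and vehicle replicate 3 as the lowest vehicle library at 169 CPM. PLEC, the plectin that ties ITGB4 to keratin, had a log2 fold change of -1.79 (edgeR adjusted p = 0.0412), with 679 CPM in vehicle replicate 3, and of -0.73 without that library. The syndecan SDC3 fell by 1.95 (edgeR adjusted p = 0.00842), or by 1.29 without vehicle replicate 3 (185 CPM in that library), whereas its relative SDC4 had a log2 fold change of 0.67 (edgeR adjusted p = 0.00384) that was 0.58, under the limit, without vehicle replicate 3.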

How the data were processed

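RNA was extracted from SK-UT-1 cells and sequenced on an Illumina platform, with 4 vehicle and 4 TP-472 libraries. The authors deposited estimated counts per gene, made by Salmon 1.4.0 (submitters' processing notes) against GRCh38 transcripts and summed to GENCODE genes, and these were rounded here to whole numbers. The column names were matched to the labelled group and replicate number. A CPM (counts scaled to library size) above 1 was required in 4 or more of the 8 libraries, which 14073 of 60282 genes met. These were scaled by TMM and fitted in edgeR 4.0.16 (R 4.3.3) with its quasi-likelihood test, with Benjamini-Hochberg adjustment over all of them and no covariate. A call needed an adjusted p under 0.05 and a fold change over 1.5. CPM values are scaled by TMM. Members under the filter were compared by an exact two-sided permutation test of mean log2 CPM over 70 assignments. Levels per kb used the union of exons in GENCODE 29.

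Estimated counts divide reads between transcripts by a model, so overlapping genes are less certain, and low counts are the least precise. The paper states that its experiments used biological replicates, but the labels do not say whether these were separate cultures. The p-values therefore measure the spread between these libraries. On simulated counts, edgeR recovered 133 of 200 simulated 2-fold changes, with 7 false calls among 14073 genes. With the GC offset 131 were recovered, and with the replicate block 96. The simulated counts did not carry the GC-linked shift of vehicle replicate 3, so they do not show how the fits handle it. Alternatives were DESeq2 1.42.0, limma 3.58.1 (voom with quality weights), other scaling and filters, a replicate block, a GC offset and leaving out each library. The members and gene lists were chosen with earlier results of these data known. All 35 members are named, as well as the most abundant gene of each marker list. From each other list, up to 4 called genes per direction are named, ranked by absolute log2 fold change and restricted to a mean CPM of 5 or more. COL7A1, NEDD9, TNC and SDC2 were added after their values were seen. The other markers named were chosen after their values were seen. Integrin tail motifs were not analysed here.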

Additional observations from a re-analysis of the deposited data

Results flagged for a closer look

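In 12 of 70 groups of 4 libraries, the gap between an extreme library and its nearest neighbour exceeded the critical share of the whole range that Dixon's test sets for 4 samples, where chance gives about 1 group in 20. Vehicle replicate 3 was the library apart in 10 of the 12. It was the highest vehicle library for ITGA2B (gap 0.865 of the range), ITGA3 (0.855), ITGA5 (0.885), ITGA7 (0.866), ITGB2 (0.876), ITGB4 (0.870), ITGB7 (0.856), LAMB2 (0.926) and LAMC3 (0.908), and the lowest for LAMC1 (0.837). The remaining groups rested on few counts. ITGA8 had 1 count in vehicle replicate 1 and 0 in the other vehicle libraries (1.000), and ITGB2 had 7 counts in TP-472 replicate 2 and 4 in each other TP-472 library (0.921).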

How the results depend on the processing

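The number of genes called was 3789 and ranged from 2672 (filter at 5 CPM) to 5090 (no filter). With the filter at 5 CPM, 1 integrin was called higher, 0 integrins lower and 0 laminins higher. Over all genes, that filter gave 1154 called higher and 1518 lower. With no filter the same member counts were 4, 2 and 2, beside 2393 genes called higher and 2697 lower. With 1 library left out at a time, 1 to 3 integrins were called higher and 1 to 3 laminins lower (1 without each TP-472 library). In those fits 1 to 3 adaptors were called higher and 4 to 13 lower, and 3 to 5 other ligands higher and 2 to 4 lower. Of the basement membrane partners, 0 to 1 were called higher and 10 to 12 lower. Among the other receptors, 1 to 2 were called higher and 4 to 7 lower. Calls over all genes were then 1303 to 1824 higher and 1387 to 2399 lower. Directions turned for ITGA3 (0.10 with the GC offset, 0.10 with the GC offset and block), ITGA4 (-0.292 to 0.021 with 1 library left out, positive without vehicle replicate 2), ITGB1 (-0.019 by limma-voom), LAMB3 (0.23 with the GC offset, 0.24 with the GC offset and block, 0.14 by limma-voom, -0.199 to 0.208 with 1 library left out, positive without vehicle replicate 3), and for the low ITGAL (difference in mean log2 CPM of 0.22, and -0.072 to 0.435 with 1 library left out, negative without TP-472 replicate 1), none of them called, and the cause was not tested. Estimates of members under 1 CPM are limited by depth.

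Same-numbered libraries did not deviate together (correlations of -0.06, 0.12, -0.17 and -0.18), so the numbers were not taken as pairs. With a replicate block 3055 genes were called and LAMA5 was not (log2 fold change -1.76). No vehicle library correlated best with the TP-472 library of its own number.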

Other observations

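Of the 9 smooth muscle markers, 7 were tested and 3 were called lower, beside 14.9% of all genes. Of these 3, DES and LMOD1 passed the expression filter through their vehicle libraries alone, so their differences were built into their being tested. DES, the muscle intermediate filament desmin, fell from 3.25 ± 0.203 to 0.630 ± 0.169 CPM (SD, n = 4, log2 fold change -2.36, edgeR adjusted p = 1.89e-04). LMOD1, an actin nucleator of smooth muscle, fell by 1.84 (edgeR adjusted p = 0.00401) and TAGLN, the actin-binding transgelin, by 0.67 (edgeR adjusted p = 0.00397) on the log2 scale, and all of these genes were also called lower without vehicle replicate 3. ACTA2, smooth muscle actin, had means of 160 ± 16.7 and 109 ± 3.52 CPM, with a log2 fold change of -0.55 (edgeR adjusted p = 0.00426) that lay under the fold limit and was -0.59, just past it, without vehicle replicate 3. The other tested markers were not called, with log2 fold changes of -0.06 for CALD1 (edgeR adjusted p = 0.646), 0.13 for CNN1 (edgeR adjusted p = 0.696) and -0.68 for SMTN (edgeR adjusted p = 0.15), the last at -0.13 without vehicle replicate 3. MYH11, the smooth muscle myosin heavy chain, was under the filter at 0 to 0.0281 CPM in vehicle and 0.194 to 0.264 CPM with TP-472, without overlap, and MYOCD was at 0 to 0.139 and 0.0259 to 0.211 CPM. Of the epithelial keratins, KRT18 rose by 1.08 (edgeR adjusted p = 7.26e-04) and KRT19 fell by 0.85 (edgeR adjusted p = 0.0151), while KRT8 was not called (log2 fold change 0.52, edgeR adjusted p = 0.0959). The other epithelial markers were under the filter. EPCAM, an adhesion protein of epithelia, was at 0.632 to 0.840 CPM in vehicle and 0.207 to 0.310 CPM with TP-472, without overlap, and the ranges of CDH1 and ESRP1 overlapped.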
